A study of Mus musculus with 8 samples.

Results

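The serpins measured here are the 62 genes, among 24421 in the deposited expression table, whose symbol is Serpin followed by a clade letter from a to i, a number and at most 1 further letter. Clade b, the clade that stays largely inside the cell, has 27 members, and clade a, most of whose members are secreted, has 24. Clade e has 3, clades f and i have 2 each, and clades c, d, g and h have 1 each. The members were taken by name and not by their values. Serpins are a family of proteins with a shared fold, most of which inhibit a serine or cysteine protease by offering a reactive loop as bait and trapping the enzyme in a covalent complex after cleavage. Some, such as the collagen chaperone Serpinh1, have lost the inhibitory role. In skin, serpins are known for restraining the proteases that shed the horny layer, remodel matrix and clots, and leave leukocytes during inflammation.

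The study profiled sorted cells from the back skin of 4 C57BL/6J mice that carried the ROSA mTmG reporter and Tyr:CreERT2, a tamoxifen-dependent Cre driven by tyrosinase regulatory sequence. A cell of such a mouse makes membrane tdTomato until Cre acts, and membrane EGFP afterwards, so that EGFP marks cells of the melanocyte lineage that recombined and tdTomato marks all other cells of the skin, including any melanocyte in which Cre did not act. All 4 mice had tamoxifen daily for 10 days from day 21 and depilation on day 50, 2 of them had UVB at 150 mJ/cm2 for 3 days and 2 had a mock treatment, and skin was taken on day 54. Both populations were sorted from each animal, which gave 4 groups of 2 libraries, with mouse 1 as the first and mouse 2 as the second replicate without UV, and mouse 3 and mouse 4 in that order as the replicates with UV.

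Values are reads divided by a size factor of the library, called normalized reads here, and libraries are listed as replicate 1, then replicate 2. The libraries held 11186363 to 16711981 reads and 11186 to 17076 detected genes. The EGFP+ library of UV replicate 2 had the fewest detected genes, and only 16 of the 62 serpins had a read in it, against 24 to 33 in the other EGFP+ libraries and 36 to 43 in tdTomato+ libraries. Mouse 1 stands apart by its Xist reads, 477 in EGFP+ and 1103 in tdTomato+ cells, where no other library had over 4, and calls of named serpins that change without it are given in the closing section. The summed level of 6 melanocyte markers was 384313 to 490656 in EGFP+ libraries, and 6 of 6 were higher there than in tdTomato+ cells, as the label has it. In tdTomato+ libraries it was 2072 to 4543 without UV and 16834 to 30917 with UV, and 4 of 6 were higher with UV by the test used below. The 5 basal keratinocyte markers summed to 564 to 823 in EGFP+ and 155806 to 209278 in tdTomato+ libraries, and the EGFP+ mean was 0.403% of the tdTomato+ mean.

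Of the 62 serpins, 48 had a mean of at least 1 normalized read in at least 1 group and were tested. The 14 others had at most 3 reads over all 8 libraries. They include Serpina1b to Serpina1f, Serpina6 (the corticosteroid carrier), Serpind1 (heparin cofactor II) and Serpinf2 (antiplasmin), and 4 of them (Serpina1e, Serpinb9g, Serpinf2 and Serpini2) had no read at all. A mean of at least 50 in some group was reached by 23 members. Tests used limma on log2 of the normalized reads plus 1, with p adjusted by Benjamini-Hochberg over all 18070 genes tested. A gene is said to pass, rise or fall where the adjusted p was under 0.05, and differences are on that log2 scale, which understates the change of low genes.

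Most serpin genes lie in 3 loci: clade a on chromosome 12 (23 members, chr12:103614786-104414329), clade b on chromosome 1 (12 members, chr1:106861173-107610484) and clade b on chromosome 13 (15 members, chr13:32842092-34002794), all in GRCm38. The chromosome 1 locus is where expression differed most between EGFP+ and tdTomato+ cells, and its upstream sequences are shown first, since its median difference was the largest of the 3 loci. They are the 200 bases before the RefSeq start site (GRCm38.p6), 5′ to 3′ on the gene's own strand. Capitals mark matches to TGANTCA and to TATAAA, the TATA box, on either strand (TTTATA is TATAAA read on the other strand), and no matches overlapped. TGANTCA allows any base in the middle and is looser than TGA(C/G)TCA, the consensus bound by AP-1. Of this locus, the members described library by library that held a match to TGANTCA are shown. Serpinb3b, also described so, had no such match and is not shown. Serpine2, the serpin that rose with UV in tdTomato+ cells, is shown for comparison and had no match to TGANTCA or TATAAA.
Serpinb5, chr1:106860975-106861174, plus strand: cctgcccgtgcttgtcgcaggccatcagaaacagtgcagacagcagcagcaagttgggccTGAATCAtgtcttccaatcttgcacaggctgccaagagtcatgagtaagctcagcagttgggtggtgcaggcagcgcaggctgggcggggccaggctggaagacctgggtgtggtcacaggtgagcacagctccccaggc
Serpinb11, chr1:107362114-107362313, plus strand: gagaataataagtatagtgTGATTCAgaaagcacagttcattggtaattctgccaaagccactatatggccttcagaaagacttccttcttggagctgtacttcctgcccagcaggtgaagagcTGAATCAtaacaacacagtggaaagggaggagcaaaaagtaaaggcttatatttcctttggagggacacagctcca
Serpinb7, chr1:107422489-107422688, plus strand: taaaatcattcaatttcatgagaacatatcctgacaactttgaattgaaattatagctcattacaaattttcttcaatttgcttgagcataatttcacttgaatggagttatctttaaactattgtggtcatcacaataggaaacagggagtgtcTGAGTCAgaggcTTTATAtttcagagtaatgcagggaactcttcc
Serpinb2, chr1:107511223-107511422, plus strand: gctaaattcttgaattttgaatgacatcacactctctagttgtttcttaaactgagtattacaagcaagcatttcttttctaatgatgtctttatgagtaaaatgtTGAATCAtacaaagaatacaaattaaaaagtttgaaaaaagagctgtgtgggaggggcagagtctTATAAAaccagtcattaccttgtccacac
Serpinb10, chr1:107528803-107529002, plus strand: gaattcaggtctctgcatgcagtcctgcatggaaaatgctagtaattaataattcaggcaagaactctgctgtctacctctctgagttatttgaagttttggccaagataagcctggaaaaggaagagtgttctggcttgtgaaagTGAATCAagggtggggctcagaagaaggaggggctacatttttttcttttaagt
Serpinb8, chr1:107589806-107590005, plus strand: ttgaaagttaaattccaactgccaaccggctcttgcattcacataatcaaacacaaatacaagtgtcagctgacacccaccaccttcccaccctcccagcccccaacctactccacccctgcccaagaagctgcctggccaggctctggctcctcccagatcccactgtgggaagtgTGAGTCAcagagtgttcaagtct
Serpine2, chr1:79858666-79858865, minus strand: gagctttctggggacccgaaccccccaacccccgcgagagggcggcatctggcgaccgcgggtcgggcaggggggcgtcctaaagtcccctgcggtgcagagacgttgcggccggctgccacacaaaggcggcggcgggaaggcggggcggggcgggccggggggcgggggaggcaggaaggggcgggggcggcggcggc

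A window was found for 52 of the 62 serpins. TGANTCA was in 7 of the 11 windows of the chromosome 1 locus: the 6 shown and that of Serpinb12. The 4 windows without it belong to Serpinb3a, Serpinb3b, Serpinb3c and Serpinb3d, which lie on the minus strand. It was in none of the other 41 serpin windows, and in 5.48% of the 32851 windows of the same length in the whole RefSeq table. Serpinb11 had 2 matches, and the match of Serpinb8 began 23 bases before the start site. The matches of Serpinb7 and Serpinb8 were TGAGTCA, a form of the AP-1 consensus. Those of Serpinb2, Serpinb5, Serpinb10, Serpinb11 and Serpinb12 were TGAATCA or TGATTCA, which are not. TATAAA was in 12 serpin windows (9.96% of all windows), 6 of them in the chromosome 1 locus. Of the E-box sequences, CACGTG was in none of the serpin windows (5.26% of all) and CATGTG in 4 (9.76% of all), and the heat shock core GAANNTTC was in 1 (5.36% of all). The motifs were chosen after the values were seen, and a match describes letters and shows no binding.

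Over the 4 mice, 22 of the 48 tested serpins were lower in EGFP+ than in tdTomato+ cells and 1, Serpinb1a, was higher. Of all genes tested, 28.9% passed in this comparison, 19.2% lower and 9.66% higher. The median difference of the tested serpins was −1.76, against −0.33 over all genes tested. The libraries of the 2 populations did not overlap for 20 of the 48, as for 27.8% of all genes tested. Under quantile normalization, which moved the median of all genes by 0.35, the split of all called genes went from 1746 higher and 3471 lower to 2618 and 2671, and that of the serpins to 3 and 18. In bulk samples such as these, fewer cells of a type and less RNA per cell cannot be told apart. The heat map of the named serpins shows the low EGFP+ columns of the chromosome 1 genes beside the tdTomato+ ones.

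**Figure D1:**
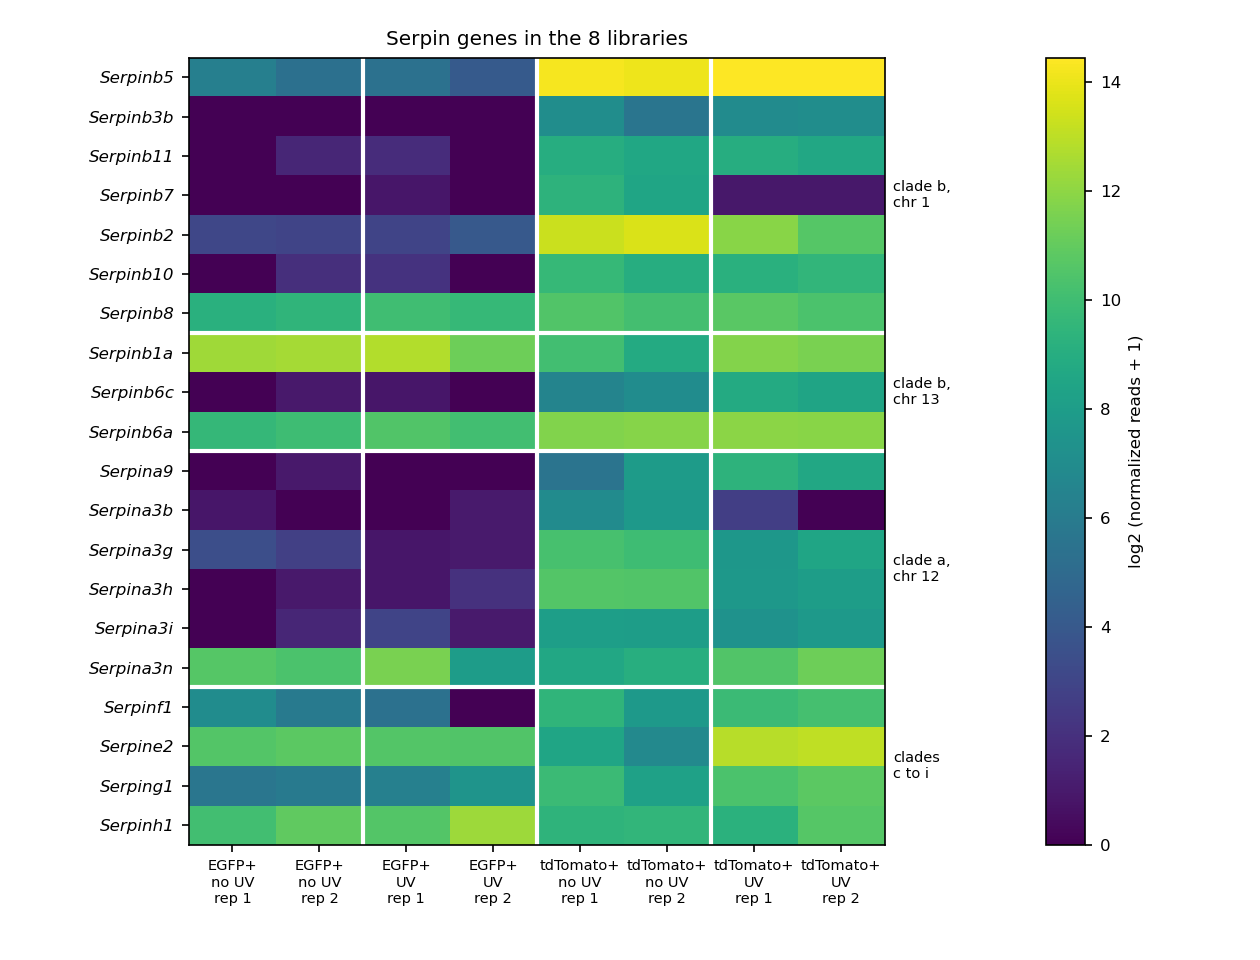
Heat map of log2 (normalized reads + 1) for 20 named serpins (rows, grouped by locus in genome order, with clades c to i at the bottom) in the 8 libraries (columns, 2 replicates of each group). Serpinb5 and Serpinb2 are the brightest rows in tdTomato+ cells, Serpinb1a is bright in EGFP+ cells, and Serpine2 is brightest in the 2 tdTomato+ libraries with UV.

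Serpinb5, or maspin, a non-inhibitory serpin of epithelia described as a tumour suppressor, had the highest level of the family per kilobase of transcript in tdTomato+ cells. Its values in tdTomato+ libraries were 19665 and 17363 without UV and 22134 and 22385 with UV. In EGFP+ libraries they were 74.9 and 39.0 without UV and 41.1 and 16.2 with UV. Every tdTomato+ library stood far above every EGFP+ library. The difference was −9.04 ± 0.31 (SE, adjusted p = 1.03e-06), and the tdTomato+ mean was 477-fold higher. The EGFP+ mean was 0.210% of the tdTomato+ mean, beside 0.403% for the basal keratinocyte markers, and whether other cells among the sorted EGFP+ cells gave these reads was not tested. With UV, tdTomato+ cells showed a difference of 0.27 ± 0.44 (adjusted p = 0.834) that did not pass.

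Serpinb2 (plasminogen activator inhibitor 2), which inhibits urokinase and is abundant in differentiating keratinocytes and activated macrophages, had the next highest tdTomato+ level without UV, at 9949 and 12490. With UV it was 3771 and 1615. The EGFP+ values were 7.49 and 6.66 without UV and 6.71 and 15.1 with UV, all far below. The population difference was −9.11 ± 0.38 (adjusted p = 1.75e-06). Serpinb2 and Serpinb10 overlap in the annotation, and reads were not kept apart by strand or shown to be unique to either.

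Serpinb10 (bomapin) and Serpinb11 (epipin), 2 less studied members of the locus, were present in tdTomato+ libraries at 814, 504, 587 and 720 for Serpinb10 and at 508, 384, 511 and 411 for Serpinb11, in the order without UV, then with UV. In EGFP+ libraries neither was above 3.36. Their differences were −8.32 ± 0.74 (adjusted p = 9.56e-05) and −7.98 ± 0.72 (adjusted p = 9.83e-05). Neither tdTomato+ level stood apart by UV, since the libraries of the 2 treatments overlapped for both.

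Serpinb3b, a mouse relative of the squamous cell carcinoma antigens, which inhibit cathepsins, had no read in any EGFP+ library. Its tdTomato+ values were 135 and 48.5 without UV and 125 and 133 with UV. Taking 3 reads over the EGFP+ group as the limit that no read allows, it was at least 169-fold lower in EGFP+ cells. Its copies Serpinb3a, Serpinb3c and Serpinb3d were at or under 13.7 everywhere, and Serpinb3b overlaps Serpinb3c, so the split among these near-identical genes is uncertain.

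Serpinb8, which inhibits furin-like proteases, differed from its neighbours. Its EGFP+ values were 586 and 705 without UV and 1048 and 822 with UV, and its tdTomato+ values were 1467 and 1142 without UV and 1697 and 1305 with UV. The lowest tdTomato+ library lay just above the highest EGFP+ one, and the EGFP+ mean was 56.3% of the tdTomato+ mean. The difference was −0.84 ± 0.18 (adjusted p = 0.00892). It did not pass when UV tdTomato+ replicate 1 (−0.75, adjusted p = 0.0543) or EGFP+ replicate 1 without UV (−0.78, adjusted p = 0.0515) was left out, or when values were rescaled without the 20 most abundant genes (−0.58, adjusted p = 0.0501).

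In all, 8 of the 11 tested serpins of the chromosome 1 locus were lower in EGFP+ cells (the 7 above and below, and Serpinb12) and 0 were higher, with a median difference of −4.71. Of the 12 tested in the chromosome 13 locus, 4 were lower and 1 was higher, with a median of −0.82. Of all genes tested, 19.2% were lower and 9.66% higher, with a median of −0.33, so the higher count in the chromosome 13 locus was near that share. The 3 tested members of the chromosome 1 locus that did not pass, Serpinb3a, Serpinb3d and Serpinb13, had at most 38.5 normalized reads in any library.

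The chromosome 13 locus holds the neutrophil serpin Serpinb1a, the mouse counterpart of the leukocyte elastase inhibitor. By group means it was the most abundant serpin per kilobase of transcript in EGFP+ cells, but in UV EGFP+ replicate 2 it was at 1282 and Serpinh1 at 2230. The EGFP+ values of Serpinb1a were 5350 and 5910 without UV and 6995 and 2458 with UV, and its tdTomato+ values were 1096 and 461 without UV and 3465 and 3021 with UV. Without UV the EGFP+ values were all above the tdTomato+ ones, and with UV the ranges overlapped, with UV EGFP+ replicate 2 below both tdTomato+ libraries. Over 4 mice the difference was 1.67 ± 0.36 (adjusted p = 0.00854). It was 2.98 ± 0.51 without UV (adjusted p = 0.00476). With UV it was 0.36 ± 0.51 (adjusted p = 0.711), and −0.40 without UV EGFP+ replicate 1. The summed level of 4 neutrophil markers was 414 to 1079 in EGFP+ and 925 to 5483 in tdTomato+ libraries, and the part of neutrophils in its level was not tested.

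The 4-mouse difference of Serpinb1a did not pass without UV tdTomato+ replicate 1 (1.72, adjusted p = 0.0751) or 2 (1.62, adjusted p = 0.091), without EGFP+ replicate 1 (1.71, adjusted p = 0.0856) or 2 (1.63, adjusted p = 0.0871) of the mice without UV, or without tdTomato+ replicate 2 of those mice (1.36, adjusted p = 0.0724). The difference without UV was likewise lost without either EGFP+ replicate of those mice (3.05, adjusted p = 0.0871, and 2.91, adjusted p = 0.096) or tdTomato+ replicate 2 (2.36, adjusted p = 0.0829). Its direction was the same in each of these fits.

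Serpinb6a, an inhibitor of cathepsin G that is found in many tissues, was lower in EGFP+ cells. Its EGFP+ values were 783 and 986 without UV and 1464 and 1083 with UV, and its tdTomato+ values were 3304 and 3671 without UV and 3992 and 3826 with UV. Every tdTomato+ library was above every EGFP+ one, and the difference was −1.81 ± 0.15 (adjusted p = 7.67e-05), or 3.43-fold between the means. Its exons overlap other annotated genes (1110046J04Rik, Nqo2 and Ripk1). Serpinb6c, its close copy, had at most 1 read in any EGFP+ library, and tdTomato+ values of 91.9 and 128 without UV and 464 and 349 with UV. The EGFP+ libraries held 2 of its reads in all against 1066 in tdTomato+ libraries, a ratio of 599 (95% exact interval 165 to 4952, counting error only). Serpinb9, the granzyme B inhibitor, was alike in both: 117 to 182 in EGFP+ and 70.5 to 181 in tdTomato+ libraries (difference 0.30 ± 0.37, adjusted p = 0.572).

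The remaining clade b genes were low. Serpinb1b and Serpinb6b had no read in EGFP+ cells and passed as lower, with tdTomato+ values of 10.1 to 59.7 and 1.96 to 25.7. Serpinb6e was at 577 in tdTomato+ replicate 2 without UV and at most 6.49 elsewhere, so its level rests on that library. Serpinb9b had 20.97 normalized reads in UV EGFP+ replicate 1 and none elsewhere.

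In clade a, the mouse carries an expanded set of antichymotrypsin genes, Serpina3a to Serpina3n, whose copies are close in sequence, so reads could be split between them and each level below is uncertain to that extent. Of 11 tested copies, 5 were lower in EGFP+ cells and 0 were higher (the median difference was −2.93), where 19.2% of all genes tested were lower and 9.66% higher. Serpina3h had values of 1548 and 1464 in tdTomato+ libraries without UV and 206 and 262 with UV, and at most 3.23 in EGFP+ libraries (difference −8.23 ± 0.61, adjusted p = 3.56e-05). Serpina3g, also named Spi2A, an inhibitor of lysosomal cathepsins in lymphocytes, had 1200 and 998 without UV and 199.8 and 354 with UV in tdTomato+ libraries, and at most 9.98 in EGFP+ libraries (−7.04 ± 0.53, adjusted p = 3.57e-05). For both, each tdTomato+ library stood far above each EGFP+ library.

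Serpina3i followed the same population order, with tdTomato+ values of 270.0 and 264 without UV and 164 and 217 with UV and EGFP+ values of at most 6.71 (−6.43 ± 0.74, adjusted p = 0.000365). Serpina3b was at 123 and 216 in tdTomato+ libraries without UV, at 5.50 and 0 with UV, and at most 1.08 in EGFP+ libraries. Without UV its difference was −6.92 ± 1.20 (adjusted p = 0.00525), and this was lost without EGFP+ replicate 2 of those mice (−6.48, adjusted p = 0.068). Over 4 mice it was −3.87 ± 0.85 (adjusted p = 0.00943), but −3.65 (adjusted p = 0.0574) without that library, −5.09 (adjusted p = 0.071) with a pseudocount of 0.1 and −2.56 (adjusted p = 0.12) under quantile normalization. Serpina3c, at most 44.5 in any library, was the fifth copy that passed.

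Serpina3n, an acute-phase inhibitor of granzyme B that is made in many tissues, was the most abundant of the copies that did not pass. It made up 97.6% of clade a reads in EGFP+ cells without UV and 99.0% with UV. Its EGFP+ values were 1602 and 1330 without UV and 3033 and 252 with UV, and its tdTomato+ values were 408 and 534 without UV and 1447 and 2477 with UV. The UV EGFP+ replicates were far apart, and the populations overlapped over the 4 mice (difference 0.27 ± 0.65, adjusted p = 0.785). This difference was 1.16 (adjusted p = 0.0166) without UV EGFP+ replicate 2 and −0.63 (adjusted p = 0.0746) without UV EGFP+ replicate 1. Without UV both EGFP+ values were above both tdTomato+ values.

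Serpina9, known as centerin and described in germinal centre B cells, had at most 0.95 in EGFP+ libraries and 47.0 and 244 in tdTomato+ libraries without UV and 636 and 402 with UV. The difference was −7.63 ± 0.80 (adjusted p = 0.000224). It overlaps the gene Gm28577 in the annotation, as does Serpina11. Over the whole chromosome 12 locus, 7 of 16 tested members were lower and 0 were higher, with a median of −2.92, where 19.2% of all genes tested were lower and 9.66% higher.

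The other clades hold single genes with their own roles. Serping1 (chr2:84765387-84775444), the C1 inhibitor that restrains complement and the contact system, had EGFP+ values of 49.9 and 61.8 without UV and 77.2 and 179 with UV. Its tdTomato+ values were 930.2 and 307 without UV and 1326 and 1795 with UV. All were above the EGFP+ values, and the difference was −3.47 ± 0.42 (adjusted p = 0.000465). Serpinf1 (chr11:75409769-75422701), or PEDF, a non-inhibitory secreted serpin that restrains new blood vessels, had EGFP+ values of 130 and 59.9 without UV and 40.3 and 0 with UV, and tdTomato+ values of 692 and 221 without UV and 934 and 1158 with UV. The groups did not overlap (−4.74 ± 1.04, adjusted p = 0.00944), but 6 of the 8 fits that left out 1 library lost the call, those without any tdTomato+ library or either EGFP+ library of the mice without UV (−5.15 to −4.33, adjusted p up to 0.122).

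Serpinh1 (chr7:99345376-99353239), or HSP47, the procollagen chaperone of the endoplasmic reticulum, leaned the other way. EGFP+ values were 1092 and 1944 without UV and 1524 and 5071 with UV, and tdTomato+ values were 663 and 729 without UV and 604 and 1607 with UV. EGFP+ was above tdTomato+ in each of the 4 mice, by 0.72, 1.41, 1.33 and 1.66 on the log2 scale. The difference was 1.28 ± 0.43 (adjusted p = 0.0569), which did not pass, while it passed with edgeR (adjusted p = 0.00539), DESeq2 (adjusted p = 0.00394) and without UV EGFP+ replicate 1 (1.71, adjusted p = 0.00856). With mouse as a block, the paired fit that compares the 2 populations within each animal, it passed (adjusted p = 0.00205), and so did the differences without UV (1.07, adjusted p = 0.0275 against 0.286) and with UV (1.496, adjusted p = 0.00883 against 0.135). The highest value, in UV EGFP+ replicate 2, was in the library with the fewest detected genes, and Serpinh1 was 44.2% of all serpin reads there.

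**Figure D2:**
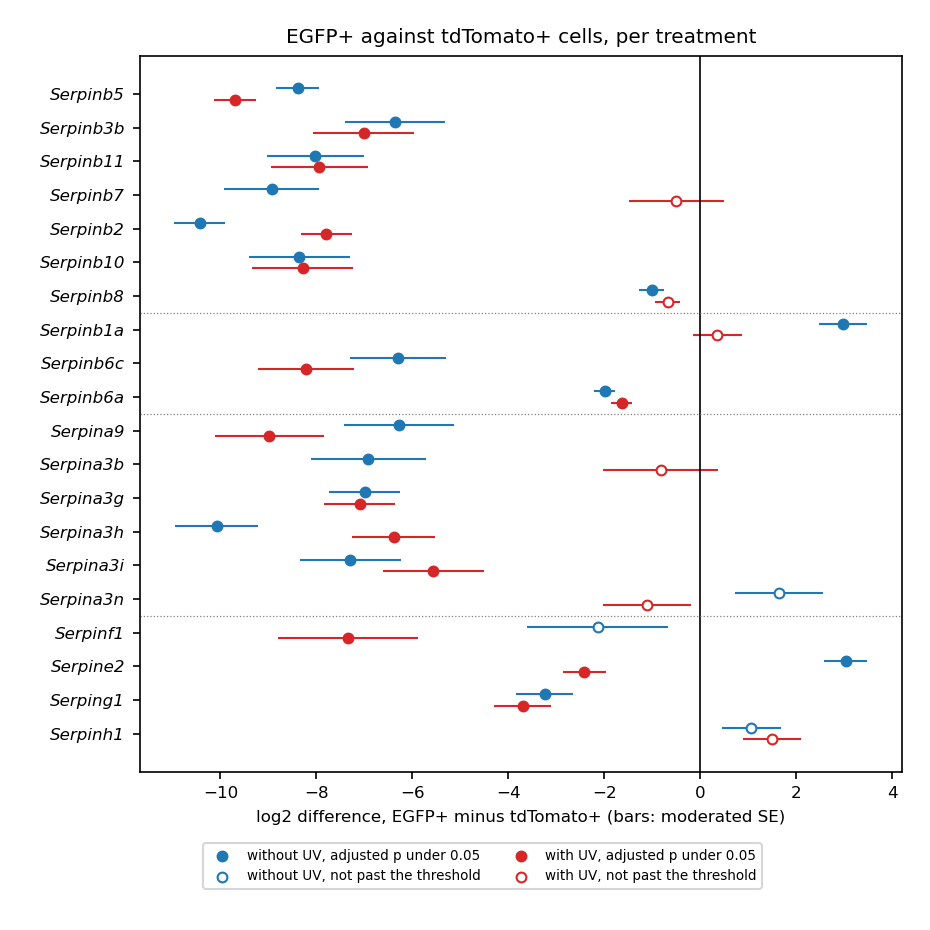
Log2 difference of EGFP+ minus tdTomato+ cells (x axis, bars are the moderated SE) for 20 named serpins, grouped by locus, without UV in blue and with UV in red, where filled points passed an adjusted p of 0.05. Serpine2 is the gene whose filled points lie on opposite sides of 0, at 3.04 and −2.42, and Serpinb7 is at −8.93 without UV and −0.50 with UV.

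Split by treatment, 16 of 48 tested serpins were lower and 2 higher in EGFP+ cells without UV, where 19.2% of all genes tested passed (12.5% lower and 6.67% higher). With UV, 18 were lower and 0 higher, where 17.9% of all genes tested passed (12.9% lower and 5.03% higher). Without UV tdTomato+ replicate 1 fewer serpins passed, and fewer of all genes tested. These 2 comparisons use different mice. With mouse as a block, Serpina12, a low gene, lost its call with UV (adjusted p = 0.0591 against 0.0487) and Serpinb12 gained one (adjusted p = 0.0366 against 0.0774).

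The 2 serpins called higher in EGFP+ cells without UV were Serpinb1a and Serpine2. Serpine2 (chr1:79794197-79861180), protease nexin 1 or glia-derived nexin, is secreted, binds heparin and inhibits thrombin, plasmin and the plasminogen activators. Its EGFP+ values were 1551 and 1776 without UV and 1550 and 1457 with UV, a narrow range. Its tdTomato+ values were 359 and 113 without UV and 7650 and 8440 with UV. Without UV both tdTomato+ libraries lay below all EGFP+ libraries, and with UV both lay above all of them.

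EGFP+ cells without UV had 7.05 times the tdTomato+ mean of Serpine2 (difference 3.04 ± 0.45, adjusted p = 0.00251). With UV they had less, by −2.42 ± 0.45 (adjusted p = 0.00775), and the tdTomato+ mean was 5.35-fold higher. The first call was lost without either EGFP+ replicate of the mice without UV (3.13 and 2.94, adjusted p = 0.0588 and 0.0679). The second was lost without UV EGFP+ replicate 2 (−2.37, adjusted p = 0.0686), UV tdTomato+ replicate 1 or 2 (−2.49 and −2.35, adjusted p = 0.108 and 0.117), or either EGFP+ replicate without UV (−2.42, adjusted p = 0.0638 and 0.0517). Over the 4 mice the populations did not differ past the threshold (0.31 ± 0.32, adjusted p = 0.506). This mean of opposite differences was −0.11 without tdTomato+ replicate 2 of the mice without UV and 0.72 without replicate 1.

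UV was then compared with no UV within each population. In tdTomato+ cells 1 of the 48 tested serpins rose (Serpine2) and 1 fell (Serpinb7), where 0.559% of all genes tested passed (0.349% higher and 0.21% lower). At an unadjusted p under 0.05 there were 9 serpins, and 13.4% of all genes tested. The libraries of the 2 treatments did not overlap for 20 of the 48, as for 46.1% of all genes tested. edgeR called 6 of the serpins and DESeq2 called 8, where they called 240 and 629 of the 18070 genes tested. Both limma calls were lost without UV EGFP+ replicate 2, either UV tdTomato+ replicate or either EGFP+ replicate of the mice without UV. In those fits almost none of all genes tested passed. Without tdTomato+ replicate 1 of the mice without UV more serpins passed, and far more of all genes tested.

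In EGFP+ cells no serpin passed with limma, edgeR or DESeq2. Of all 18070 genes tested, 0.0166% passed with limma, while edgeR called 120 and DESeq2 called 361. At an unadjusted p under 0.05 there were 5 serpins, and 10.4% of all genes tested. Without UV EGFP+ replicate 1, which leaves a single library in that group, more serpins passed, and so did far more of all genes tested.

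Serpine2 rose in tdTomato+ cells by 5.31 ± 0.45 (adjusted p = 0.0101), from a mean of 236 ± 174 (SD, n = 2) to 8045 ± 559 (SD, n = 2), which is 34.1-fold. The value was 4.48 to 6.14 over all alternatives. The call was lost without UV EGFP+ replicate 2 (5.31, adjusted p = 0.0698), UV tdTomato+ replicate 1 or 2 (5.38 and 5.24, adjusted p = 0.166 and 0.121), or either EGFP+ replicate without UV (5.31, adjusted p = 0.109 and 0.126). Per kilobase of transcript it went from 16th of 61 serpins in tdTomato+ cells without UV to 2nd with UV, after Serpinb5, and with the union of all exons as length from 22nd of 62 to 4th. Melanocyte markers summed to 4543 and 2072 in the same libraries without UV and to 16834 and 30917 with UV, and 4 of 6 rose. Serpine2 in tdTomato+ cells with UV was itself above its level in every EGFP+ library, where those markers summed to at least 384313. The part of melanocytes in its rise was not tested.

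In EGFP+ cells the UV difference of Serpine2 was the small one, with values of 1457 to 1776 over both treatments. The difference between the UV changes, EGFP+ minus tdTomato+, was −5.46 ± 0.63, with an adjusted p of 0.0788 by limma. No serpin passed in that comparison, in which 0.00553% of all genes tested did. At an unadjusted p under 0.05 there were 8 serpins and 10.0% of all genes. edgeR called 1 serpin there, Serpine2 (adjusted p = 0.000157), among 75 genes in all, and DESeq2 called 4 among 291. Without UV EGFP+ replicate 1 or without tdTomato+ replicate 1 of the mice without UV, Serpine2 passed with limma (−5.50 and −6.29). Further serpins passed in these fits, among far more of all genes tested than with all libraries.

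**Figure D3:**
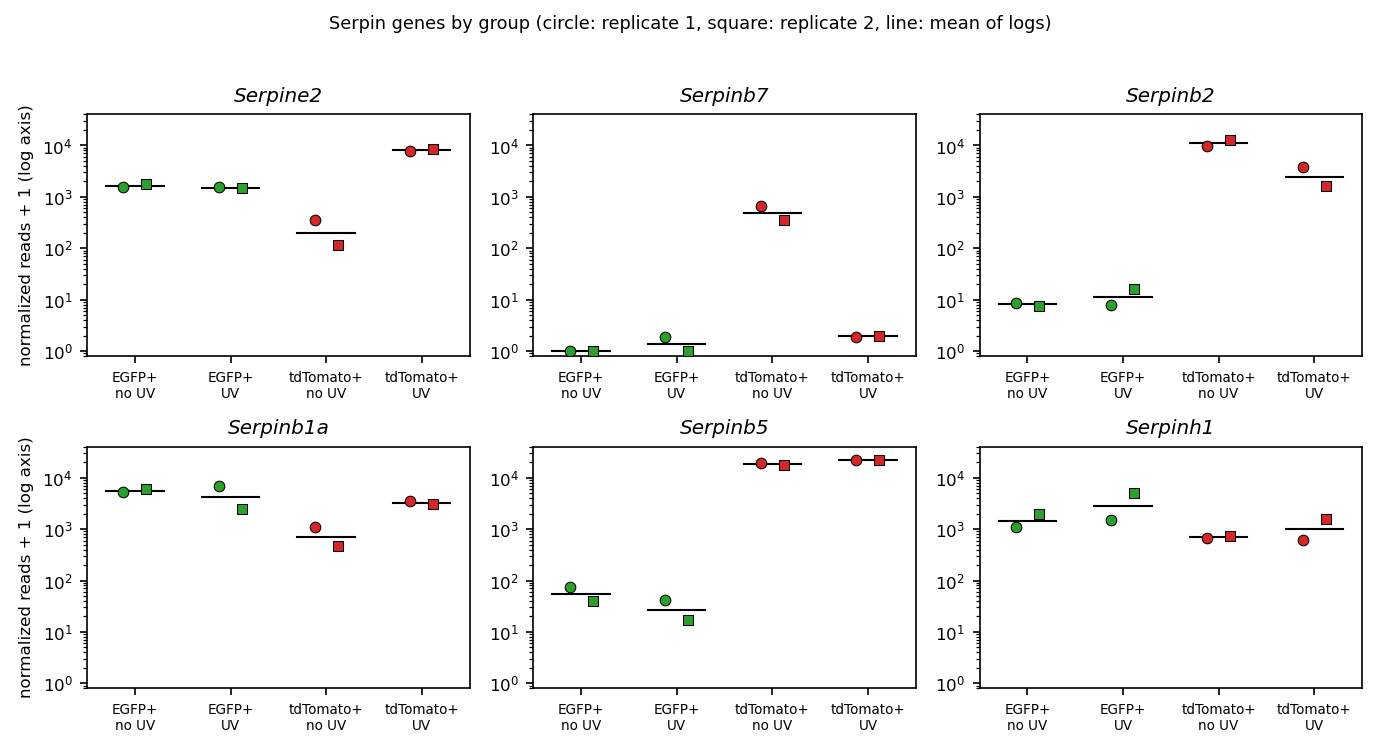
Normalized reads plus 1 (log axis) of 6 serpins in the 4 groups, with a circle for replicate 1, a square for replicate 2 and a line at the mean of the logs. In tdTomato+ cells with UV, Serpine2 is at 7650 and 8440 and Serpinb7 at under 1 normalized read, while Serpinb5 stays between 17363 and 22385 in all 4 tdTomato+ libraries.

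Serpinb7, or megsin, is an epidermal and mesangial serpin whose loss in people causes a palmoplantar keratosis. It had 655 and 360 normalized reads in tdTomato+ libraries without UV and 0.92 and 0.93 with UV, where 1 read per library remained. In EGFP+ libraries it had 1 read in UV replicate 1 and none elsewhere. Against 922 reads in tdTomato+ cells without UV, no EGFP+ read means at least 402-fold less, and the population difference there was −8.93 ± 0.99 (adjusted p = 0.000623). In tdTomato+ cells it was lower with UV, by −7.98 ± 0.99 on the log2 scale (adjusted p = 0.0211), a ratio of 581 (95% exact interval 160 to 4801, counting error only).

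That call of Serpinb7 was lost with a pseudocount of 0.1 (−8.89, adjusted p = 0.118). It was also lost without UV EGFP+ replicate 2 (−7.98, adjusted p = 0.0698), UV tdTomato+ replicate 1 or 2 (−7.98 and −7.99, adjusted p = 0.167 and 0.108) or either EGFP+ replicate without UV (−7.98, adjusted p = 0.109 and 0.126). The difference between its UV changes in the 2 populations was 8.42 ± 1.40 (adjusted p = 0.193). It passed with DESeq2 (adjusted p = 0.00272), without UV EGFP+ replicate 1 (7.98, adjusted p = 0.0257) and without tdTomato+ replicate 1 of the mice without UV (7.99, adjusted p = 0.00307).

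Of its chromosome 1 neighbours, Serpinb2 had lower values in tdTomato+ cells with UV (3771 and 1615 against 9949 and 12490, without overlap), with a difference of −2.17 ± 0.53 (adjusted p = 0.137) that did not pass. It passed with edgeR (adjusted p = 0.00405) and DESeq2 (adjusted p = 0.000157). Serpinb5, Serpinb8, Serpinb10 and Serpinb11 had unadjusted p above 0.05. Beside these, the 6 suprabasal keratinocyte markers summed to 49651 to 64915 in tdTomato+ libraries without UV and 19863 to 35368 with UV, and 2 of 6 fell. These were Krt1, from 5874 and 10598 to 54.1 and 16.7, and Krt10, from 12359 and 18394 to 673 and 351, while Krtdap, at 28051 and 31598 without UV and 29533 and 16988 with UV, made up most of the sum with UV. The hair follicle markers summed to 80982 to 94476 and 38580 to 50729, with 0 of 6 passing. The basal keratinocyte markers stayed at 155806 to 209278. The part of these cells in the fall of Serpinb7 was not tested.

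Among clade a genes, Serpina3h, Serpina3g and Serpina3b had lower tdTomato+ values with UV than without, without overlap. Their differences were −2.69 ± 0.87 (adjusted p = 0.233), −2.04 ± 0.74 (adjusted p = 0.289) and −6.01 ± 1.20 (adjusted p = 0.0823), and none passed. DESeq2 called all 3 (adjusted p = 5.51e-09, 0.00192 and 0.00248), and edgeR called the first pair (adjusted p = 0.0047 and 0.0458). The 5 T and NK cell markers in the table summed to 821 and 1116 without UV and 124 and 1.85 with UV in the same libraries, with 0 of 4 tested passing, and the part of those cells was not tested. Serpina3n had higher values with UV (1447 and 2477 against 408 and 534), by 2.02 ± 0.92 (adjusted p = 0.396, and 0.0459 without UV EGFP+ replicate 1).

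Serpinb1a also had higher tdTomato+ values with UV, 3465 and 3021 against 1096 and 461, by 2.18 ± 0.51 (adjusted p = 0.119), which passed with edgeR (adjusted p = 0.0203) and DESeq2 (adjusted p = 0.00222). Serping1 differed by 1.53 ± 0.59 (adjusted p = 0.32). In EGFP+ cells, the largest difference at an unadjusted p under 0.05 was that of Serpinf1 (−3.80 ± 1.47, adjusted p = 0.433). It rests on low values, and it passed when UV EGFP+ replicate 1 was left out (−6.48, adjusted p = 0.00335).

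Summed over clades, serpin reads were 0.0802% to 0.118% of EGFP+ libraries and 0.267% to 0.333% of tdTomato+ libraries. Clade b was 60.8% and 60.0% of serpin reads in EGFP+ libraries without UV and 60.9% and 39.3% with UV. In tdTomato+ libraries it was 85.5% and 87.6% without UV and 73.4% and 66.5% with UV. The share of clade b was thus lower with UV in both tdTomato+ replicates, while its sum stayed between 33910 and 38024. Clade e went from 471 and 191 to 7767 and 8649 in tdTomato+ cells, and Serpine2 was 98.0% of it with UV.

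**Figure D4:**
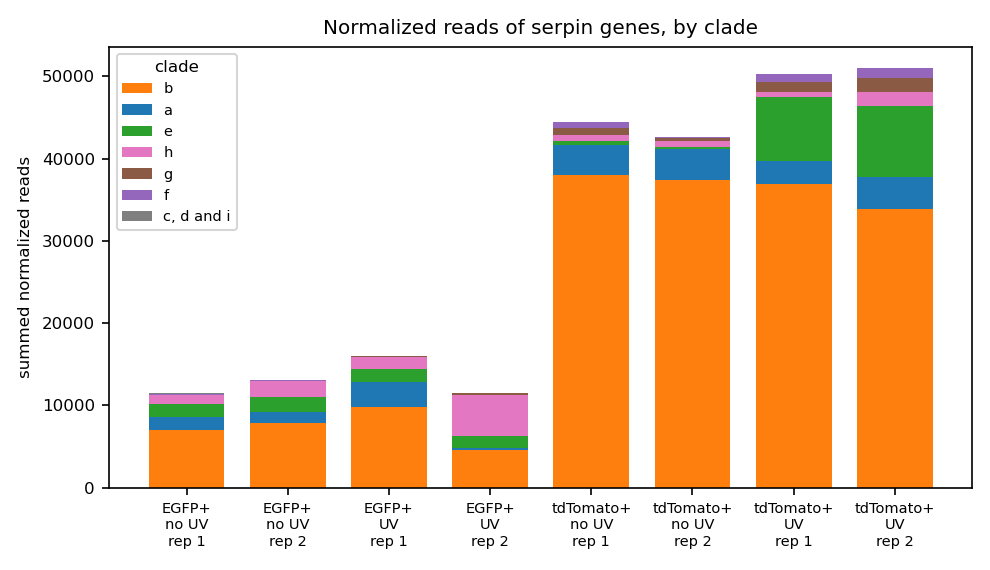
Summed normalized reads of the serpin genes in each library (bars, stacked by clade, 2 replicates of each of the 4 groups). tdTomato+ bars reach 42672 to 51019 and EGFP+ bars 11469 to 16020, and the clade e part is largest in the 2 tdTomato+ libraries with UV.

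Levels of different serpins were compared per kilobase of the principal annotated transcript, which 61 of the 62 had. Serpina3h had none and is left out of this order, and with the union of its exons it was 3rd in tdTomato+ cells without UV. In EGFP+ cells without UV, Serpinb1a was at 2935 per kilobase, then Serpine2 at 753, Serpina3n at 710, Serpinh1 at 668 and Serpinb6a at 535, and from Serpine2 on the replicates of each gene overlapped those of the next. In tdTomato+ cells without UV, Serpinb5 was at 6929 and Serpinb2 at 5621, and Serpinb6a followed at 2109. The replicates of the first pair did not overlap (6498 and 7360 against 4985 and 6258). With UV, Serpinb5 was at 8331, Serpine2 at 3640, Serpinb6a at 2363, Serpinb1a at 1691 and Serpinb2 at 1349. The replicates of the last pair overlapped. With the union of all exons as length instead, Serpinb5 and Serpinb1a kept their first places in these groups.

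The targets and partners of serpins gave the setting. Of 11 tested genes of plasminogen activation, 1 was higher in EGFP+ cells over 4 mice and 5 were lower, where 9.66% of all genes tested were higher and 19.2% lower, the shares against which the counts of the following lists stand too. The higher one was Plat, the tissue plasminogen activator, at 10034 ± 4501 (SD, n = 4) against 493 ± 231 (difference 4.36 ± 0.21, adjusted p = 3.55e-06). Plau, urokinase, had no EGFP+ read and 79.0 ± 18.1 (SD, n = 4) in tdTomato+ cells. S100a10, which brings plasminogen to the cell surface, was lower by −1.11 ± 0.14 (adjusted p = 0.000682).

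Of 18 epidermal serine proteases, 15 were lower in EGFP+ cells and 0 were higher (the median difference was −6.03), led by the kallikreins Klk10 (−8.72), Klk8 (−8.26) and Klk7 (−8.20). Of 18 other protease inhibitors of skin, 13 were lower and 1 was higher. Spint2, an inhibitor of matriptase, differed by −8.31, the cystatin-like Stfa3 by −8.65 and the elastase inhibitor Slpi by −6.94. The higher one was Tfpi, the tissue factor pathway inhibitor (3.88 ± 0.31, adjusted p = 4.95e-05), which also rose with UV in tdTomato+ cells by 3.01 (adjusted p = 0.0344), and Cst3, cystatin C, fell there (−1.15, adjusted p = 0.0391). Of 15 coagulation genes 1 was higher, again Tfpi, near the share of all genes, and 5 were lower, among them F3, tissue factor (−5.12), and F2rl1, a protease-activated receptor (−7.79).

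Of 12 complement genes, 2 were higher in EGFP+ cells, C2 (4.02) and C4b (5.29), and 7 were lower, C1s1 among them (−6.40), while C1qa rose with UV in tdTomato+ cells (5.98, adjusted p = 0.0476). Of 11 lysosomal cathepsins, 3 were higher, Ctsz (2.18) and Lgmn (1.92) among them, and 2 were lower, including Ctss (−6.03), the latter count near the share of all genes. In tdTomato+ cells 5 cathepsins rose with UV, led by Ctsl (1.67), Ctsc (1.87) and Ctsd (1.67). Of 6 tested leukocyte granule proteases 4 were lower in EGFP+ cells, with Gzmc, Prtn3 and the mast cell chymase Cma1 all at means under 25 over the 4 tdTomato+ libraries, and Cma1 rose with UV in tdTomato+ cells (5.16, adjusted p = 0.0374). The procollagen folding genes, partners of Serpinh1, had 5 higher and 1 lower of 14, with Hspa5 at 0.74 (adjusted p = 0.00773), Plod2 at 3.57 (adjusted p = 0.0246) and P4ha3 at −2.27 (adjusted p = 0.0251). Agt, angiotensinogen, which has the serpin fold under another name, was higher in EGFP+ cells, at 114 ± 54.3 against 7.48 ± 12.3 (SD, n = 4 each; 4.93 ± 1.16, adjusted p = 0.0133). These genes came from fixed lists, and the UV calls of Tfpi, Cst3, Cma1, C1qa and the cathepsins each failed in at least 6 of the 8 fits that left out 1 library.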

How the data were processed

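Messenger RNA of 8 sorted populations was sequenced after poly(A) selection with a kit that does not keep strand, per the labels' protocols. The submitters' processing notes name FastQC, DESeq2 1.14.1, TopHat2 2.0.12, Cufflinks 2.2.1 and the build mm10. What counted the reads, and over which annotation, is not given in the sources used here. Signal values were deposited by the authors, in which the reads of a gene are divided by a size factor of the library (0.701 to 1.20). Whole reads were recovered from them, 195368 of 195368 values within 0.01 of a whole number. The log2 fold changes, score and p-value columns that the authors deposited for EGFP+ against tdTomato+ cells over 8 libraries, per the file headers, gave no result here.

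Values plus a pseudocount of 1 were put on the log2 scale and fitted with limma 3.58.1 (R 4.3.3), with a mean per group over all 8 libraries and moderation with a trend. Residual degrees of freedom were 4, and moderation raised their median to 8.40. A gene was tested where some group had a mean of 1 or more, p was adjusted by Benjamini-Hochberg over 18070 genes, and the code was tested on simulated data. The adjusted p in the text are from this fit unless edgeR 4.0.16 or DESeq2 1.42.0, both run on the recovered reads, is named. With 2 libraries a group, an exact test on 1 gene cannot pass the threshold.

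The labels give 1 mouse per library pair, so EGFP+ and tdTomato+ cells of a mouse are paired by the animal. The deviations from the group means correlated at 0.107 in mice 1 and 2 and at 0.0901 in mice 3 and 4 over 13047 genes. The mouse was a block in an alternative fit of the population comparisons and of the difference of the UV changes. For UV within a population the block was the replicate number, which pairs different mice. Other alternatives were pseudocounts of 0.1 and 5, no filter and a stricter one, rescaling to totals that leave out the 20 most abundant genes, quantile normalization, the compared libraries alone, edgeR, DESeq2, each library left out, and, chosen after seeing the data, both libraries of mouse 1 left out.

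Serpins called in any comparison with a group mean of at least 50, those with a group mean of at least 500, and Serpinb2, Serpinb5, Serpinb7 and Serpine2 were described library by library. The values of 1 serpin that met this rule are not reported here, though it stays in the counts and sums. Serpinb9, Serpinb9b, Serpinb1b, Serpinb6b, Serpina3c and other low genes outside that rule were named after their values were seen. Of other lists, the 3 tested genes with the smallest p between the populations and those called with UV were eligible, and C4b, Lgmn and further members were named after their values were seen. The members, lists, motifs and tests were chosen with earlier results of these data known. Gene positions and transcript lengths are from GENCODE vM21 (GRCm38) and promoter sequences from RefSeq (GRCm38.p6). Intervals and limits on reads cover counting error only.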

Additional observations from a re-analysis of the deposited data

Results flagged for a closer look

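The UV difference of Serpine2 in EGFP+ cells minus that in tdTomato+ cells was −5.46 ± 0.63 on the log2 scale. It stood out because both tdTomato+ libraries with UV were above those without it, a difference of 5.31. EGFP+ values stayed in a narrow range, at 1550 and 1457 with UV and 1551 and 1776 without. For the difference between the UV changes, the adjusted p was 0.0788 with limma over all genes tested. It was 0.108 with mouse as a block and 0.000157 with edgeR. Over all alternatives the difference ran from −6.38 to −4.62. Within mice, EGFP+ minus tdTomato+ was 2.11 and 3.97 without UV and −2.30 and −2.53 with UV.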

How the results depend on the processing

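Serpin calls were recomputed under each alternative, 1475 values of named serpins in all. Of these, 1334 kept their direction and side of the threshold, 84 lost the threshold, 53 gained it and 4 changed sign. The sign changes were all in differences that did not pass. Serpine2 over 4 mice ran from −0.11 to 0.72 and Serpina3n from −0.63 to 1.16 with 1 library left out, Serpinb1a with UV from −0.40 to 1.11, and Serpinb7 with UV was 0.079 under quantile normalization. Leaving out 1 library gave 11 to 19 serpins called between the populations with UV (18 with all libraries), 0 to 4 for UV in EGFP+ cells (0), 0 to 11 for UV in tdTomato+ cells (2) and 0 to 7 for the difference of the UV changes (0). The serpin counts over 4 mice and without UV (23 and 18 with all libraries) moved with the library left out as well. In the same fits the number of all genes tested that passed also varied widely in each comparison. These ranges thus do not describe the serpins alone. For UV in tdTomato+ cells the serpin count was 1 with a pseudocount of 0.1 and 5 with the compared libraries alone. It was 6 with edgeR under TMM, 6 under RLE size factors and 8 with DESeq2. For the difference of the UV changes it was 1 with edgeR under TMM, 1 under RLE and 4 with DESeq2. When both libraries of mouse 1 were left out, far more of all genes tested passed for UV in each population and for the difference. The serpin counts of that fit, given next, rose along with those of all genes. Without both libraries of mouse 1, whose group then rests on 1 library per population and is assumed to vary like the others, the counts were 6 for UV in EGFP+ cells, 10 in tdTomato+ cells and 11 for the difference. In that fit 22 values lost the threshold, with adjusted p up to 0.29. Among them over 4 mice were those of Serpinb1a (2.02, adjusted p = 0.118), Serpinf1 (−4.60), Serpinb8 (−0.69) and Serpina3b (−4.29). Without UV they include those of Serpina3b, Serpina3i, Serpinb1a, Serpinb6a, Serpinb6c, Serpinb8, Serpinb10, Serpinb11 and Serping1, and with UV those of Serpina3h, Serpina3i, Serpinb6a, Serpinb10, Serpinb11, Serpinf1 and Serping1. Gained were Serpine2 over 4 mice (0.77, adjusted p = 0.0179) and the differences of the UV changes of Serpinb7 (7.99, adjusted p = 0.0204) and Serpine2 (−6.38, adjusted p = 0.000779), and the UV rise of Serpine2 in tdTomato+ cells passed (adjusted p = 0.000333). With mouse as a block, 24, 19 and 19 serpins were called for the populations over 4 mice, without UV and with UV, and 0 for the difference of the UV changes. Of all 18070 genes tested, 5221, 3288, 3190 and 1 were called in the same order. Each mouse had a single treatment, so mouse cannot be a block for UV within a population. There the block was the replicate number, which pairs different mice. In tdTomato+ cells 2 serpins were called and in EGFP+ cells 0, beside 70 and 2 of all genes tested. These fits changed no call beyond those of Serpinh1, Serpina12 and Serpinb12. Rescaling without the 20 most abundant genes moved 9 of 36 clade sums by more than the spread between replicates. The reads cannot show levels below about 1 read per library, which touches Serpinb7, Serpina3b and the 14 serpins that were not tested.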
